A study of Mus musculus with 9 samples.

Results

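The untreated condition of a 9-library RNA-seq series was described on its own: 3 of the 9 libraries, labelled as replicates 1, 2 and 3 of HEI-OC1 cells in normal growth with no treatment. The other libraries, from H2O2-exposed cells with or without nanoreactor pretreatment, were not used. HEI-OC1 is an established mouse line made from cochlear tissue, in the region of the organ of Corti, of a mouse carrying a temperature-sensitive SV40 large T antigen under the H-2Kb promoter. It is grown permissively at a reduced temperature and is widely used to screen compounds that harm or protect hearing. All 3 libraries thus come from 1 immortalised line. The defining genes of hair cells and supporting cells, Atoh1, Pou4f3, Slc26a5 and Sox2, had no count in any of them. The labels state neither culture temperature, passage nor whether the replicates were separate cultures, so the spread given here is that between libraries and may be technical.

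The cochlear sensory epithelium holds mechanosensory hair cells and the supporting cells between them. Both arise from the otic placode, an epithelial thickening patterned by Pax2, Pax8, Eya1, Gata3 and Sox2, and Atoh1 then starts hair cell differentiation. Around this epithelium lie the mesenchyme-derived spiral ligament, the stria vascularis that makes endolymph, the spiral ganglion neurons and their glia. Each compartment has genes that define it, and these were read as levels in FPKM (fragments counted at a gene, scaled to transcript length and to library size), deposited by the authors.

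The 3 libraries held 60716028, 55395418 and 64993443 deposited counts over 55401 genes. A gene was called expressed when it reached 1 FPKM or more in each library, which 11007 genes did (19.9% of all genes). Among the 21897 protein-coding genes 9838 were expressed (44.9%), and this share is the background against which each list below is read. A further 2985 protein-coding genes were low, meaning below that level with more than 12 counts in some library. Another 1935 had 12 counts or fewer in every library, and 7139 had no count. Deposited counts of 4 were more frequent than counts of 3 or 5, so 12 counts may stand for only 3 fragments. For a transcript of 1 kilobase 12 counts equal 0.183, 0.200 and 0.169 FPKM in libraries 1, 2 and 3. This limit covers counting error only. The FPKM rule was applied first, so a short gene under the limit can still be called expressed, as mt-Td was with 6, 6 and 6 counts. A gene under the limit that was not called expressed was taken as not detectable at this depth.

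**Figure D1:**
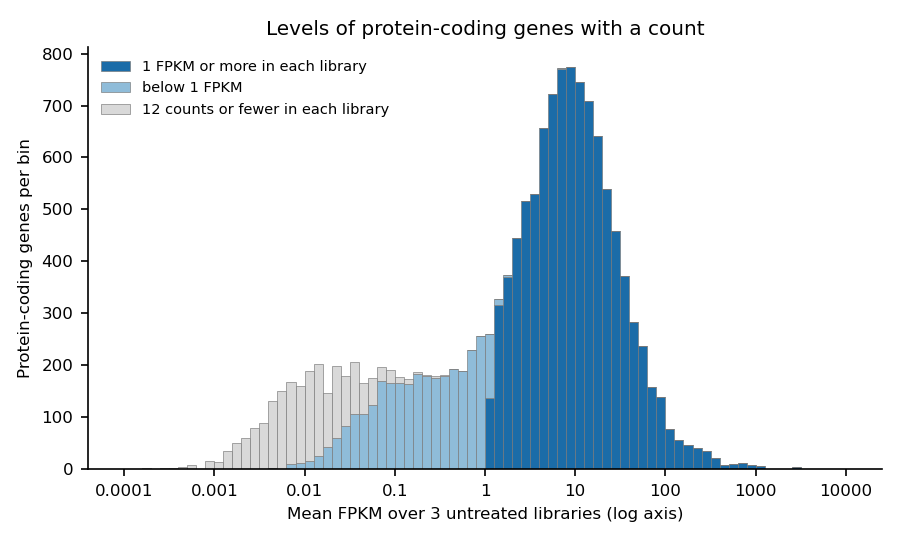
Histogram of mean FPKM over the 3 untreated libraries (log axis) for protein-coding genes with any count, coloured by class; the y axis is genes per bin. The 9838 expressed genes form a hump with a median of 9.10 FPKM, and a long low shoulder lies to its left.

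The RNA was spread over many genes. The 6039 genes between 1 and 10 FPKM held 9.76% of the summed FPKM, the 4586 between 10 and 100 FPKM held 44.4%, the 362 between 100 and 1000 FPKM held 30.5%, and the 20 at 1000 FPKM or more held 14.5%. The 10 genes of highest FPKM in each library held 10.3 ± 0.270% of its summed FPKM (SD, n = 3), and the 100 highest 28.6 ± 0.216%. Ranked by deposited counts instead, which are not divided by transcript length, the 10 highest genes held 4.50 ± 0.0294% of the counts and the 100 highest 16.3 ± 0.0652%. The genes of these rankings are not the same sets.

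Of the 25 genes of highest mean FPKM, 9 lie on the mitochondrial chromosome, 8 are annotated pseudogenes and 8 are nuclear protein-coding genes. The highest was mt-Co1, a subunit of cytochrome c oxidase, at 5663, 5518 and 5376 FPKM in libraries 1, 2 and 3. It was followed by Eef1a1, the elongation factor that brings aminoacyl-tRNA to the ribosome, at 3446, 3402 and 3368 FPKM. Mitochondrial transcripts as a whole took 2.66 ± 0.0690% of the deposited counts and 9.23 ± 0.276% of the summed FPKM (SD, n = 3). The other mitochondrial genes among the 25 encode ATP synthase subunits (mt-Atp8 at 3047 and mt-Atp6 at 2981 FPKM), cytochrome b (mt-Cytb, 2780.0 FPKM), NADH dehydrogenase subunits (mt-Nd1, 2719.8, mt-Nd2, 1049, and mt-Nd4, 1006 FPKM) and oxidase subunits (mt-Co2, 2139.9, and mt-Co3, 1178 FPKM).

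After Eef1a1 the nuclear protein-coding genes were led by the cytoskeleton and the translation machinery. Actg1, cytoplasmic gamma actin, averaged 1634 ± 15.8 FPKM, Actb, beta actin, 925 ± 11.2 FPKM, the ribosomal protein gene Rps2 1255 ± 6.37 FPKM and the chaperone gene Hsp90ab1 1127 ± 16.5 FPKM (SD, n = 3 each). The calcium-binding protein gene S100a11 was at 929, 929 and 941 FPKM, the ribosomal stalk gene Rplp1 averaged 910.0 FPKM, and Eef2, the translocation factor, 861 FPKM. In a ranking of nuclear protein-coding genes alone, a rule chosen after the values were seen, the first 25 held 10 ribosomal protein genes, 3 tubulin genes, both cytoplasmic actins and, at rank 24, Vim. The growth factor-induced matrix protein gene Ccn1 also stood among them at 623, 638 and 639 FPKM, and so did Lgals1, galectin 1, at 656, 684 and 705 FPKM. All 31 genes of a list of usually abundant genes were expressed, with a median of 395 FPKM.

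The pseudogenes near the top were close copies of abundant transcripts. A total of 52 pseudogenes reached 100 FPKM, and every one of them matched a protein-coding transcript, with a median identity of 99.7%. Of these, 24 matched ribosomal protein genes and 7 matched mitochondrial genes. Pseudogenes together took 2.87 ± 0.0133% of the counts and 12.0 ± 0.0461% of the summed FPKM. Gm10925 on chromosome 1 (chr1:24613974-24614651), at 3291, 3184 and 3038 FPKM, is identical to mt-Atp6 over its whole length, and mt-Atp6 itself stood at 3089, 2987 and 2865 FPKM. Reads from 2 copies that are identical cannot be told apart, so both values are uncertain.

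The largest excess in FPKM of copies over their gene was at Gapdh, the glycolytic enzyme whose transcript is commonly used as a reference. Gapdh itself (chr6:125161715-125165773, minus strand) was listed at only 15.4, 15.8 and 18.0 FPKM in libraries 1, 2 and 3. Its 55 pseudogene copies with a count, taken at 95% identity or more over 80% of their length, summed to 3393, 3443 and 3489 FPKM. The highest copy, Gm13394 on chromosome 2 (chr2:28933610-28934609), was at 1471, 1479.6 and 1479 FPKM. Across 1000 aligned bases it differs from the Gapdh transcript by 1 substitution, A346C, counted from 1 at the first aligned base of the transcript. The stretch around that base (bases 306 to 386 of the alignment, GENCODE M21 transcripts) is shown because it holds the only base that differs over the alignment. The capital marks that base.
Gapdh: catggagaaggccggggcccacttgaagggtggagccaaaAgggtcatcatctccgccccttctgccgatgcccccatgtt
Gm13394: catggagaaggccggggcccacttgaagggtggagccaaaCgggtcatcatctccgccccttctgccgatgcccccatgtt
A read inside the alignment that misses this base matches both genes equally. The Gapdh level deposited for these cells is thus uncertain, and how the authors' counting divided such reads is not given in the sources used here.

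Other genes stood in the same position. Rpl26 was listed at 17.2 FPKM while its copies summed to 1039 FPKM, and Rpl21 at 13.1 FPKM while 42 copies summed to 746 FPKM. Rpsa, a laminin receptor and ribosomal protein gene, was listed at 157 FPKM, and its copies at 1596 FPKM. Of 921 protein-coding genes with such copies, 117 had copies that summed to more than the gene itself. Eef1a1 was the opposite case, with 79.0 FPKM over its 9 copies against 3405 FPKM at the gene. Among the expressed genes of the cell identity lists below, only Cdh11 had copies that summed to more than itself (64.4 FPKM over 5 copies), so its level is uncertain.

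**Figure D2:**
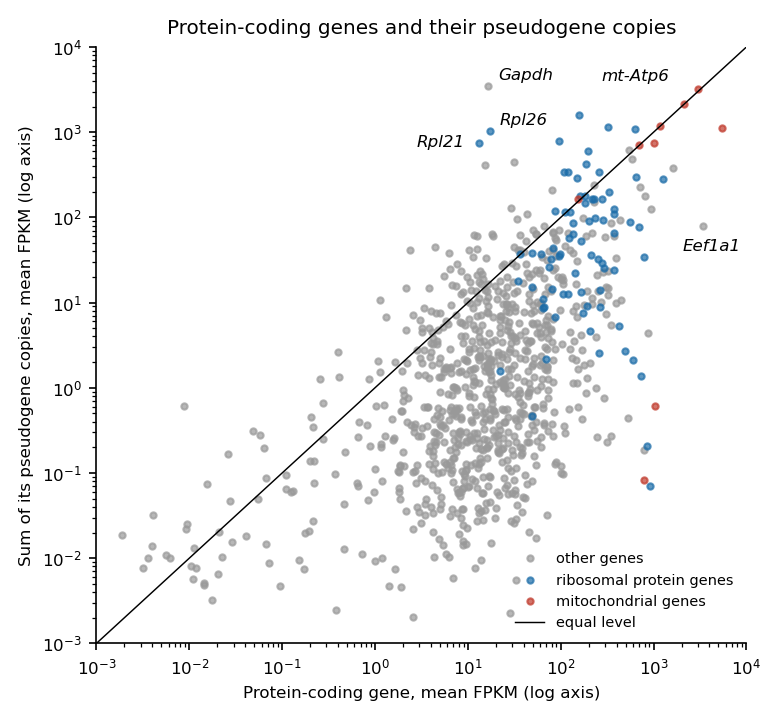
Each of 899 points is a protein-coding gene with a count and at least 1 pseudogene copy with a count; the x axis is its mean FPKM and the y axis the summed mean FPKM of its copies (both log axes, n = 3 libraries), and the line marks equal levels. Gapdh, Rpl26 and Rpl21 lie far above the line and Eef1a1 far below it, while mt-Atp6 lies close to it.

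Among the lists of cell identity genes, the fibroblast and mesenchyme list had the largest share expressed, 29 of 36 genes, with a median of 18.9 FPKM against 0.354 FPKM over all protein-coding genes. Vim, the intermediate filament protein of mesenchymal cells (chr2:13573927-13582826), led the list at 577, 572 and 581 FPKM. Fn1, fibronectin, averaged 251 ± 1.84 FPKM, and Sparc, a secreted collagen-binding glycoprotein, 228 ± 5.74 FPKM (SD, n = 3). These values differ between libraries by only a few percent. In bulk RNA a low level in every cell and a high level in few cells cannot be told apart, here and in the lists below.

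The collagens of connective tissue were high. Col1a1 was at 227, 227 and 228 FPKM, Col6a1 at 149.6, 150.1 and 155 FPKM, Col5a1 at 76.2, 78.5 and 78.7 FPKM and Col3a1 at 60.7, 63.3 and 61.7 FPKM. Col1a2, the partner chain of Col1a1 in type I collagen, was lower at 35.6, 34.8 and 35.2 FPKM. The deposited annotation covers only genes listed with an FPKM, and unlisted genes had no untreated count. A group of genes annotated as extracellular and not as cytosolic, nuclear, mitochondrial or ribosomal was chosen after the values were seen. Of its 1045 genes 290 were expressed (27.8%, below the background of 44.9%). The first 3 of them were Serpinh1, the collagen chaperone, at 359 ± 6.92 FPKM, Calu, a calcium-binding protein of the secretory pathway, at 270.5 ± 4.59 FPKM, and Fbln2, a matrix fibulin, at 269 ± 1.10 FPKM. Bgn, biglycan, averaged 126 ± 0.413 FPKM, and the matrix genes Pcolce and Loxl1 averaged 112 and 92.2 FPKM. The genes named here thus include those of collagen chains, of their chaperone and of other matrix proteins.

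Receptors and regulators of mesenchyme were also present. Pdgfrb, the PDGF receptor of pericytes and fibroblasts, was at 58.1, 60.1 and 59.8 FPKM, and Pdgfra at 5.49, 5.42 and 5.24 FPKM. The transcription factors of epithelial-mesenchymal transition were all found except Snai3: Twist1 at 21.7, 23.2 and 22.2 FPKM, Snai2 at 18.8, 20.0 and 19.7 FPKM, Snai1 at 14.3, 13.4 and 14.8 FPKM, Zeb1 at 7.18, 6.92 and 6.66 FPKM, Twist2 at 6.39, 6.09 and 6.38 FPKM and Zeb2 at 1.16, 1.25 and 1.10 FPKM. Foxc2 and Foxc1, forkhead factors of mesenchyme, averaged 19.9 and 16.8 FPKM, and Prrx1 11.8 FPKM. Cdh2, N-cadherin, averaged 38.6 ± 0.630 FPKM. Some classical fibroblast genes were missing. Dcn, decorin, Lum, lumican, and the transcription factor gene Tcf21 had no count in any library. Thy1 had 3, 0 and 0 counts and Fap 0, 0 and 4 counts in libraries 1, 2 and 3, which is at the floor. Postn, periostin, was expressed at the lower edge with 1.52, 1.53 and 1.47 FPKM.

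Smooth muscle and pericyte genes were split, with 12 of 24 expressed (50%, near the background). Acta2, smooth muscle actin, ranked below Vim at 525, 530.1 and 526 FPKM. Cnn2 (178 ± 2.52 FPKM), Tpm1 (149.8 ± 1.52 FPKM), Myl9 (92.9 ± 3.70 FPKM), Cald1 (81.1 ± 2.39 FPKM) and Tagln (72.4 ± 1.07 FPKM), which all encode actin-associated or contractile proteins, were also high. The markers of mature smooth muscle were not: Myh11, its myosin heavy chain, was at 0.0369, 0 and 0.0147 FPKM, Cnn1, calponin 1, at 0.150, 0.116 and 0.188 FPKM, and Des, desmin, at 0.0512, 0.0920 and 0.0639 FPKM. Myocd, the coactivator of serum response factor in smooth muscle, was at 0.0412, 0.0341 and 0.0919 FPKM, while Srf itself, named after its value was seen, was at 35.1, 36.4 and 35.0 FPKM. Of the pericyte genes Notch3 reached 8.85, 9.25 and 9.18 FPKM, Mcam 12.0, 11.6 and 11.7 FPKM and Cspg4 stayed just below 1 FPKM at 0.924, 0.780 and 0.978 FPKM. Rgs5 was at the floor, and Abcc9 and Kcnj8 had no count.

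**Figure D3:**
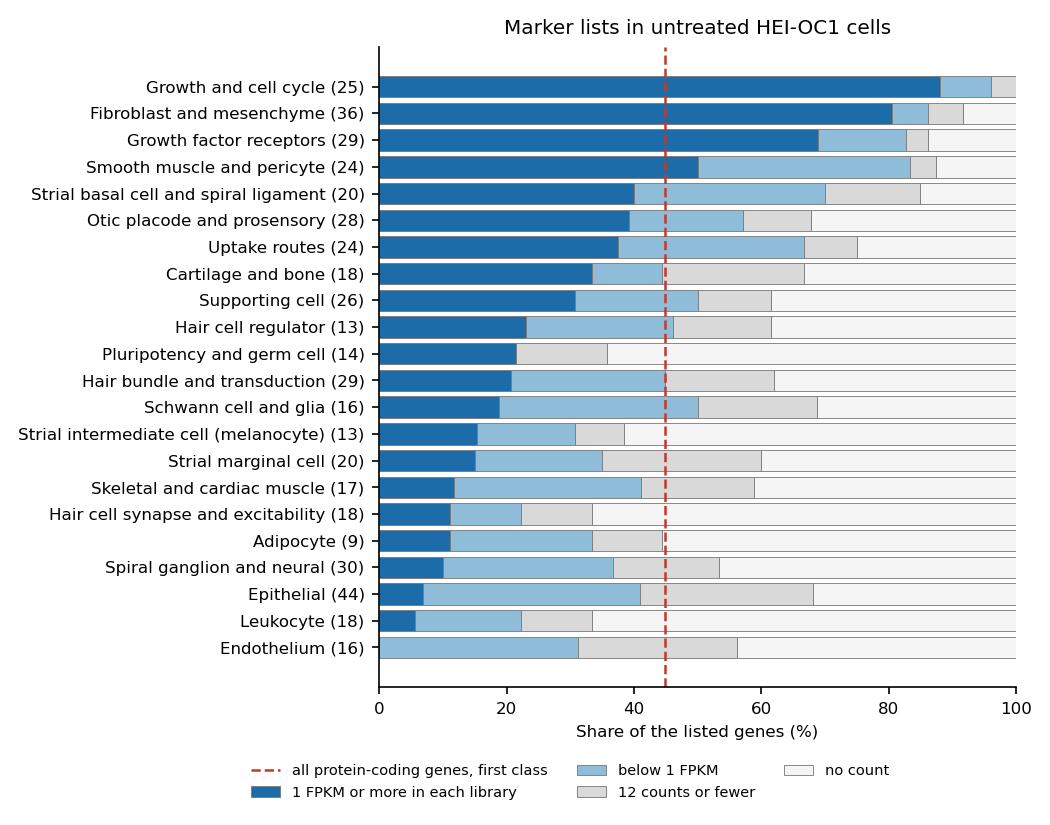
Share of each list (%, number of genes in brackets) that was at 1 FPKM or more in each untreated library, below it, at 12 counts or fewer, or without a count; the dashed line is the 44.9% of all protein-coding genes at 1 FPKM or more. The growth, fibroblast, receptor and smooth muscle lists lie right of the line, and all other lists shown lie left of it, with no endothelial gene expressed.

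The hair cell lists lay well below the background. Of the transcriptional regulators 3 of 13 were expressed, of the hair bundle and transduction genes 6 of 29, and of the synapse and excitability genes 2 of 18, where 44.9% of protein-coding genes were. Their medians were 0.0234, 0.00560 and 0 FPKM. Atoh1, the transcription factor that starts hair cell differentiation, and Pou4f3, which maintains it, had no count in any library. For a transcript of the length of Atoh1, 12 counts would be 0.0868 FPKM on average. Insm1, which protects the outer hair cell fate, Lhx3 and Nhlh1 also had no count, and Gfi1, a zinc finger repressor needed for hair cell survival, was at 0.0838, 0.0789 and 0.0176 FPKM. Tbx2, which sets the inner hair cell fate, had 9, 8 and 0 counts. The expressed regulators were Hes6 at 5.26, 6.71 and 5.43 FPKM, Rfx7 at 5.90, 5.64 and 5.27 FPKM and Ikzf2, Helios, an outer hair cell regulator, at 1.73, 1.79 and 1.81 FPKM. Both Hes6 and Rfx7 have roles outside the ear.

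The 6 expressed bundle genes spanned a wide range. Rdx, radixin, which links actin to membranes and is concentrated in stereocilia, was at 45.7, 44.0 and 44.4 FPKM, and Triobp, an actin-bundling protein of stereocilia rootlets, at 9.03, 9.86 and 9.46 FPKM. Cib2 (2.50 ± 0.289 FPKM), Eps8 (2.16 ± 0.148 FPKM), Myo6 (1.84 ± 0.0216 FPKM) and Whrn (1.27 ± 0.0784 FPKM) were between 1 and 3 FPKM. Myo7a, an unconventional myosin commonly used as a hair cell marker, was at 0.0137, 0.0286 and 0.0305 FPKM, with 8, 16 and 20 counts in libraries 1, 2 and 3. The transduction channel genes Tmc1 and Tmc2 and their partner Tmie had no count, and Lhfpl5 had 3, 0 and 0 counts. Of the tip link genes, Cdh23 had 0, 8 and 12 counts, at the floor, and Pcdh15 was at 0.0253, 0.0300 and 0.0279 FPKM. Espn, espin, had 0, 0 and 6 counts, and Strc, Myo15 and Ush1c had none.

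Of the 18 synapse and excitability genes 2 were expressed, of which 1 is described here, Ctbp2, whose locus also encodes the ribbon protein RIBEYE and which is used in most cells (7.10 ± 0.139 FPKM). Slc26a5, prestin, the motor of outer hair cells, Otof, otoferlin, Slc17a8, the vesicular glutamate transporter of inner hair cells, and the calcium channel gene Cacna1d had no count. The same held for the cholinergic receptor genes Chrna9 and Chrna10, the potassium channel genes Kcnma1 and Kcnn2 and the calcium buffer genes Pvalb and Calb2. Ocm, oncomodulin, had 4, 0 and 0 counts. For a transcript of the length of Slc26a5, 12 counts would be 0.0622 FPKM, and for Otof 0.0248 FPKM.

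Of the supporting cell genes 8 of 26 were expressed. Cdkn1b, the cell cycle inhibitor p27Kip1, led at 27.3, 27.5 and 27.5 FPKM, and it is expressed in many cell types. S100a1 averaged 8.80 ± 1.34 FPKM, the Notch-modifying glycosyltransferase gene Lfng 5.36 ± 0.159 FPKM and the glutamate transporter gene Slc1a3 4.17 ± 0.209 FPKM (SD, n = 3 each). The Notch ligand gene Jag1 (1.69 ± 0.117 FPKM), the Notch target genes Hey1 (1.22 ± 0.167 FPKM) and Hey2 (1.16 ± 0.118 FPKM) and the pillar cell receptor gene Fgfr3 (1.03 ± 0.0319 FPKM) were just above 1 FPKM. Sox2 and Prox1, the transcription factors that mark supporting cells, had no count, nor did Hes5, Ngfr and the tectorial membrane genes Otog, Tectb and Ceacam16. Lgr5, a marker of supporting cells with progenitor capacity, had 0, 21 and 7 counts. The gap junction genes Gjb2 and Gjb6 of the cochlear epithelium had 0, 0 and 14 and 0, 0 and 4 counts.

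The otic placode and prosensory list was divided more evenly, with 11 of 28 genes expressed (39.3%, near the background). Nr2f1, a nuclear receptor gene (chr13:78188973-78199757), was at 18.4, 17.6 and 17.8 FPKM. Tbx1, a T-box factor, averaged 7.65 ± 0.503 FPKM, the phosphatase and cofactor gene Eya4 5.92 ± 0.195 FPKM, Bmp4 5.72 ± 0.706 FPKM and Sox9 5.67 ± 0.112 FPKM. Otx1, Tbx3, Jag1 and Hmx2 lay between 1 and 3 FPKM. Against these, Pax2, Sox2, Sox10, Lmx1a, Hmx3, Gbx2, Oc90 and Otx2 had no count, and Foxi3 had none either. Pax8 had 0, 4 and 4 counts and Eya1 8, 8 and 0 counts, while Gata3 was at 0.230, 0.130 and 0.144 FPKM. Thus Eya4 was present without Pax2, Pax8, Sox2 or Eya1 above the floor.

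The mesenchyme-derived tissues of the lateral wall came next. The strial basal cell and spiral ligament list had 8 of 20 genes expressed (40%, near the background), of which 7 were at 10 FPKM or more. Pou3f4, the POU factor of otic mesenchyme whose loss causes X-linked deafness (chrX:110814280-110817207), was at 70.7, 71.3 and 69.9 FPKM. It was the highest of the 15 Pou genes, and the next, Pou6f1, averaged 7.66 ± 0.307 FPKM. Tbx15 was at 31.0, 30.2 and 28.6 FPKM and Tbx18, a factor of otic fibrocytes, at 7.47, 6.79 and 7.23 FPKM. Cav1, caveolin 1, averaged 74.4 ± 3.18 FPKM, and the glucose transporter gene Slc2a1 16.4 ± 0.441 FPKM. Of the other genes of the list 6 were low, 3 were at the floor and 3 had no count. Among them Otos, otospiralin, had no count, Coch, cochlin, had 0, 4 and 0 counts, and Cldn11, the claudin of strial basal cells, had none. Car3 had 8, 0 and 22 counts.

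The shares for the other cell types of the stria lay below the background. Of the marginal cell genes 3 of 20 were expressed, of which 2 are described here, the sodium pump beta subunit gene Atp1b1 (5.71 ± 0.161 FPKM) and the cotransporter gene Slc12a2 (9.55 ± 0.289 FPKM). Kcnq1 had 4, 0 and 0 counts, and Kcne1, Bsnd and Slc26a4, pendrin, had none. Of the intermediate cell genes, the melanocytes of the stria, 2 of 13 were expressed, Met (19.3 ± 1.16 FPKM) and Gsta4 (6.33 ± 1.05 FPKM), neither of which is restricted to melanocytes. Tyr, Tyrp1, Mlana, Kit, Kcnj10 and Sox10 had no count, and Mitf was at 1.05, 0.880 and 0.777 FPKM.

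**Figure D4:**
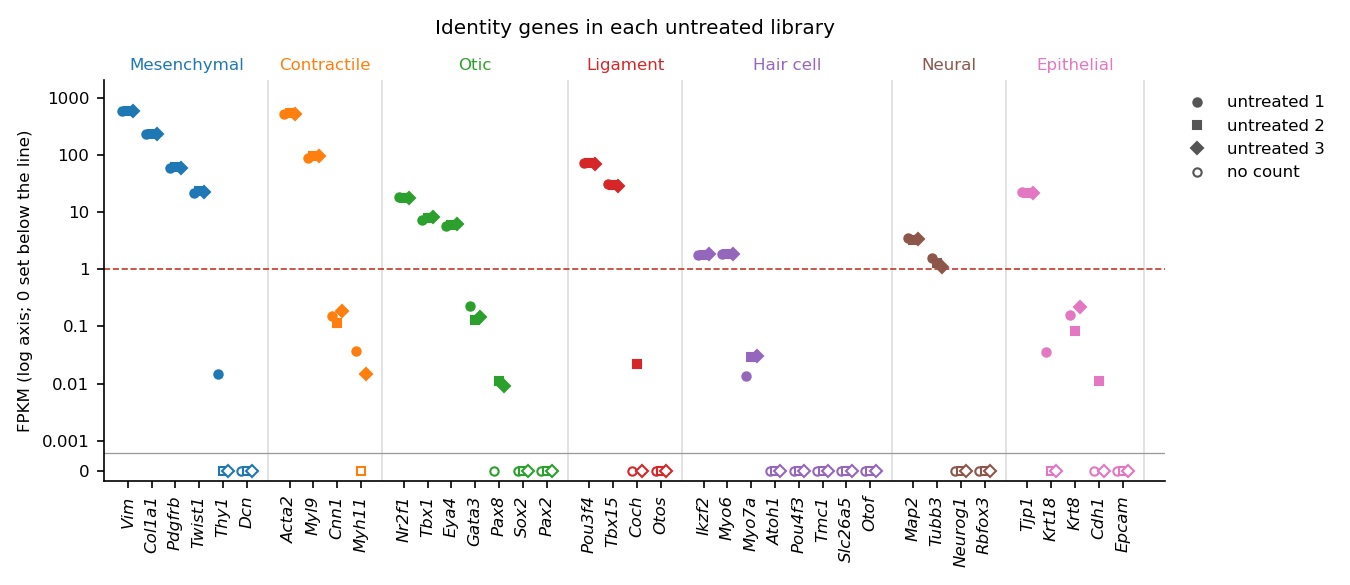
FPKM of selected identity genes in each of the 3 untreated libraries (log axis; circle, square and diamond are replicates 1, 2 and 3; open symbols below the grey line have no count), grouped by cell type; the dashed line is 1 FPKM. Of the mesenchymal and contractile genes only Vim and Acta2 lie above 500 FPKM, while Thy1, Cnn1 and Myh11 lie below 1 FPKM and Dcn has no count. Pou3f4 lies above 50 FPKM, and Atoh1, Pou4f3, Slc26a5, Sox2 and Epcam have no count in any library.

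The promoter windows of 4 of these genes are printed because they show that the letters before the start of a silent gene may be as rich in CG as those of an abundant one. Each is the 250 bases before the RefSeq start (GRCm38.p6), which can differ from the start given in the files, 5′ to 3′ on the gene's strand, and capitals mark CG, the dinucleotide that mouse DNA methylation acts on.
Vim, chr2:13574061-13574310 (+ strand): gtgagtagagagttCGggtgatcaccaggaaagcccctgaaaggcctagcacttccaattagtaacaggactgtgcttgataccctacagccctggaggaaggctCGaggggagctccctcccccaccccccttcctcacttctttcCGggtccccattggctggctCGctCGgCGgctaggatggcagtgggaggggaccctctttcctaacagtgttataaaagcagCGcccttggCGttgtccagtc
Pou3f4, chrX:110814129-110814378 (+ strand): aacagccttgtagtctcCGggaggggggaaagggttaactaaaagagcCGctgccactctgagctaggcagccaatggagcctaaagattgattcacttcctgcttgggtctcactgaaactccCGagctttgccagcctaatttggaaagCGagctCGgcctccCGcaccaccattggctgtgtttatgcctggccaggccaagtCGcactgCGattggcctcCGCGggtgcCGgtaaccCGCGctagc
Atoh1, chr6:64728875-64729124 (+ strand): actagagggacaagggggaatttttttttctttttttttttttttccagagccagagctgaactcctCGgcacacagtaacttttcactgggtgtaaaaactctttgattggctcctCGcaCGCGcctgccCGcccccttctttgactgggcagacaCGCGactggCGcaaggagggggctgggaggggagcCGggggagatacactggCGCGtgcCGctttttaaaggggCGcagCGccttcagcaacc
Tyr, chr7:87493513-87493762 (- strand): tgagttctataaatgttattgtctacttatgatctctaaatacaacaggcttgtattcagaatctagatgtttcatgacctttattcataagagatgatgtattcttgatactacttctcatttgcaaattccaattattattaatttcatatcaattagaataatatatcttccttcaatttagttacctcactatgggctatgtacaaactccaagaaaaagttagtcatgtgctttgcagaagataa
The windows hold 8 CG in Vim, 13 in Pou3f4, 14 in Atoh1 and 0 in Tyr. Atoh1 and Tyr, the pigment enzyme gene of melanocytes, both had no count. In all, 16705 protein-coding genes were matched to at least 1 window of 300 bases (250 before to 50 after the start). Where a gene had several windows, that with the most CG was taken, and the number of windows per gene was not adjusted for. The median number of CG was 24 at 100 FPKM or more, 24 from 10 to 100 FPKM and 23 from 1 to 10 FPKM. It was 14 in low genes, 7 in genes at the floor and 3 in genes with no count. TATAAA was searched on both strands. At least 1 window held it in 13.2% of genes at 100 FPKM or more, 8.00% of those from 1 to 10 FPKM and 24.8% of those with no count. Over all 16705 matched genes the share was 14.4%. Counted by window instead of by gene, it was 13.6% of all 32851 RefSeq windows, matched or not. As a class, expressed genes thus had more CG in their CG-richest window than genes with no count. Of the hair cell list genes, 44 were matched to a window. The 36 of these that were not expressed had a median of 12 CG, and the 8 expressed 21.5. The median was also 12 over the 22 matched genes of the fibroblast list and 12 over the 26 of the epithelial list.

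Neural genes were rare. Of the spiral ganglion and pan-neural list 3 of 30 were expressed, Map2, a dendritic microtubule protein, at 3.48, 3.28 and 3.36 FPKM, Tubb3, the neuronal beta tubulin, at 1.57, 1.27 and 1.09 FPKM, and Ntrk3, the neurotrophin 3 receptor, at 1.23, 1.21 and 1.16 FPKM. Neurog1 and Neurod1, which specify otic neurons, Pou4f1, Rbfox3 (NeuN), Dcx, Snap25, Nefl, Nefh and Prph had no count. Syp, synaptophysin, had 17, 0 and 14 counts, and Gap43 was at 0.813, 0.781 and 0.452 FPKM. In the Schwann cell and glia list 3 of 16 were expressed, Pmp22 (17.7 ± 0.926 FPKM), Cnp (7.21 ± 0.283 FPKM) and Egr2 (1.48 ± 0.154 FPKM). Sox10, Foxd3, Olig2 and Fabp7 had no count.

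Epithelial genes were the least expressed of the identity lists after those of blood cells and endothelium, at 3 of 44, with a median of 0.0101 FPKM. Those expressed included the junction scaffold gene Tjp1 (22.3, 21.4 and 21.5 FPKM) and Jup, plakoglobin (4.41, 4.40 and 4.43 FPKM), which are also found at junctions of mesenchymal cells. With CPM (counts scaled to library size alone) in place of FPKM 9 of the 44 reached 1, so the count depends on the scale, though it stays low. Cdh1, E-cadherin, had 0, 3 and 0 counts in libraries 1, 2 and 3. Epcam, Krt19, Esrp1, Ovol2, St14, Prom1, Cldn3, Cldn4 and Cldn6 had no count. Krt8 and Krt18, the keratins of simple epithelia, were at 0.158, 0.0845 and 0.218 FPKM and 0.0356, 0 and 0 FPKM.

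Most keratin and claudin genes had no count, and few connexin and cadherin genes were expressed. Of 54 keratin genes 1 was expressed, Krt80 at 6.70, 6.97 and 7.27 FPKM, and 40 had no count. Of 23 claudin genes 1 was expressed, Cldn12 at 27.6, 26.4 and 26.2 FPKM, and 18 had no count. Of 20 connexin genes 4 were expressed and 7 had no count, and those expressed included Gja1 at 10.6, 10.5 and 10.0 FPKM, Gjc1 at 9.71, 9.99 and 9.41 FPKM and Gja4 at 2.35, 2.32 and 2.58 FPKM. Of 23 classical and related cadherin genes 6 had no count and 4 were expressed, Cdh2, Cdh11, Cdh24 (10.3 ± 0.395 FPKM) and Cdh18 (1.43 ± 0.0730 FPKM). Vim was the only cytoplasmic intermediate filament gene at high level. The other expressed members of its family were the nuclear lamins Lmna (114 ± 2.31 FPKM), Lmnb1 (57.2 ± 2.03 FPKM) and Lmnb2 (12.4 ± 0.840 FPKM). Nes, nestin, was at 0.236, 0.314 and 0.318 FPKM.

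Lists for vessels, blood cells and other tissues had shares expressed below the background. None of 16 endothelial genes was expressed, and Pecam1 and Cdh5 had 0, 4 and 2 and 0, 6 and 12 counts. Of 18 leukocyte genes only Csf1r was expressed (1.43, 1.48 and 1.31 FPKM), and Ptprc (CD45), Aif1, Tyrobp and Cd3e had no count. In the skeletal and cardiac muscle list Nkx2-5 (6.80, 5.78 and 7.06 FPKM) and Pax3 (1.98, 1.89 and 2.01 FPKM) were expressed, and Myod1, Myog, Myf5 and Actn2 had no count. The cartilage and bone list had 6 of 18 genes expressed: Spp1, osteopontin, at 81.6, 82.6 and 78.7 FPKM, Col11a1 at 15.2, 14.7 and 14.3 FPKM, Runx2 at 9.06, 8.73 and 8.64 FPKM and Col2a1, the collagen of cartilage and otic capsule, at 8.25, 8.56 and 8.37 FPKM, besides Sox9 and Acan. Alpl, Ibsp and Dmp1 had no count, and Sp7 had 7, 0 and 4. Of 9 adipocyte genes Pparg was expressed (3.09 ± 0.148 FPKM), and of 14 pluripotency and germ cell genes Myc, Klf4 (2.77 ± 0.183 FPKM) and Nanog (1.28, 1.51 and 1.49 FPKM). Pou5f1 and Sox2 had no count.

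Of 1386 genes that the deposited table assigns to a transcription factor family, 804 were expressed (58.0%). Only genes listed with an FPKM carry this assignment, so unlisted genes, which had no untreated count, are left out of the 1386. The share is therefore not on the same footing as the 44.9% over all protein-coding genes. The shares differed by family, with 9 of 10 E2F genes, 37 of 81 bHLH genes and 48 of 137 homeobox genes expressed. Pou3f4 was the highest Pou gene and Tbx15 the highest T-box gene. The genes named next were chosen after their values were seen. The 3 highest were Ybx1, a cold shock protein that binds RNA and DNA (252 ± 2.87 FPKM), Nme2, a nucleoside diphosphate kinase (248 ± 6.63 FPKM), and the nucleic acid binding protein gene Cnbp (243 ± 6.82 FPKM). Further down the ranking Atf4 averaged 115 ± 1.30 FPKM, Junb 115 ± 2.87 FPKM, the bHLH inhibitor gene Id3 86.1 ± 2.12 FPKM and Foxm1, a factor of mitotic genes, 59.3 ± 0.733 FPKM (SD, n = 3 each). Pou3f4 ranked 13th of these transcription factors by mean FPKM.

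Hox genes mark position along the body axis, and the mammalian clusters hold paralogs in the same order. Of the 9 Hox genes expressed 8 lay in the A cluster, which had 8 of 11 genes expressed and a median of 2.90 FPKM. In the B cluster 1 of 10 was expressed, Hoxb6 at 1.21, 1.56 and 1.43 FPKM, and none of the 9 genes of the C cluster or the 9 of the D cluster was. The highest was Hoxa10 at 8.56, 8.79 and 9.27 FPKM, followed by Hoxa5 at 5.88, 5.67 and 4.99 FPKM and Hoxa4 at 5.11, 5.71 and 5.60 FPKM. Hoxa2, Hoxa3, Hoxa6 and Hoxa7 lay between 1 and 4 FPKM, and Hoxa9 missed the threshold in library 1 alone (0.854, 1.10 and 1.04 FPKM). Hoxa11 had no count and Hoxa13 had 4, 0 and 0, so the run ended at paralog group 10. By TPM (FPKM scaled to a fixed sum) 14 Hox genes reached 1 in each library in place of 9.

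**Figure D5:**
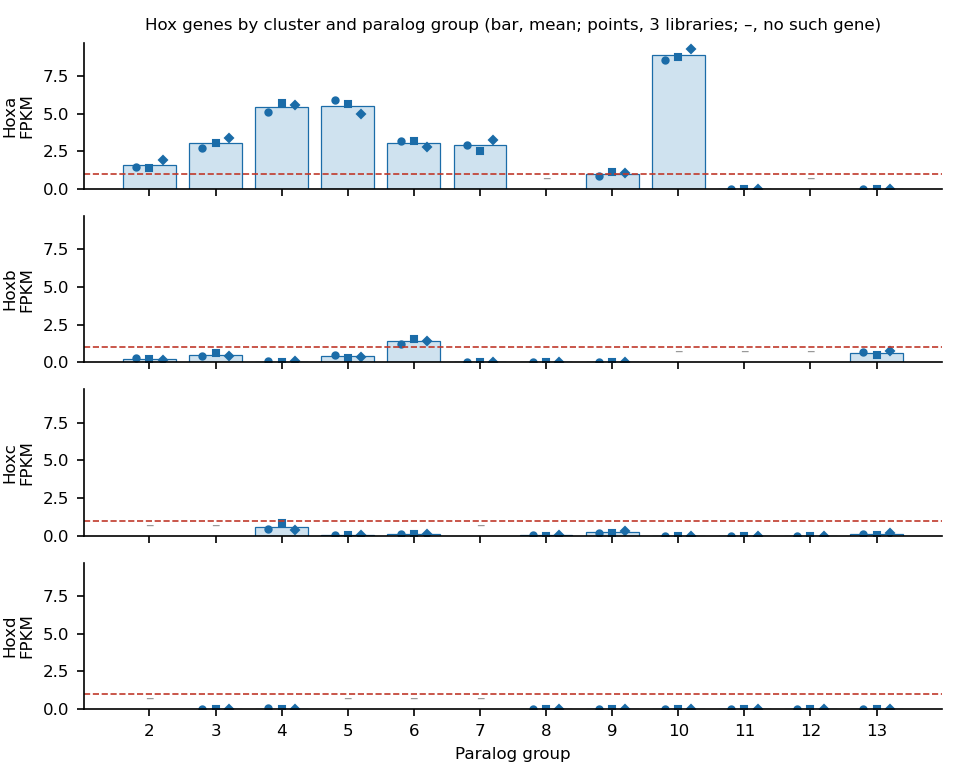
FPKM of 36 Hox genes of paralog groups 2 to 13 in 4 panels (1 per cluster) against paralog group; bars are means and points the 3 untreated libraries, the dashed red line is 1 FPKM and a dash marks a paralog group with no gene. Hoxa2 to Hoxa7 and Hoxa10 stand above the line in all 3 libraries, Hoxb6 just above it, and no gene of the C or D cluster reaches it.

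In most families of developmental transcription factors a few members stood out. Of the Sox genes 3 of 19 were expressed, led by Sox4 at 23.2, 23.9 and 24.4 FPKM, and 12 had no count. Of the Pax genes 1 of 9 was expressed, Pax3, a factor of neural crest and muscle precursors. Of the Gata genes 3 of 6 were expressed, and the cardiac and endodermal factor gene Gata4 was the highest at 4.49, 4.13 and 4.19 FPKM. Eya3 averaged 8.97 ± 0.444 FPKM and Six4 3.11 ± 0.0929 FPKM. Of the T-box genes 4 of 16, of the Dlx and Msx genes 3 of 9 and of the Lhx, Isl and Lmx genes 2 of 12 were expressed. The highest of these last 2 groups were Dlx2 at 5.48, 5.95 and 6.48 FPKM and Lhx6 at 3.34, 2.61 and 3.12 FPKM. Of the Twist, Snai and Zeb genes 6 of 7 were expressed.

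A few members of the calcium-binding and membrane-linking protein families were abundant. The share expressed was above the 44.9% of the background for annexins (83.3%) and below it for clustered protocadherins (12.1%). It was near the background for S100 (41.2%), galectin (50%) and unconventional myosin genes (44%). Of the annexin genes, whose products bind membranes in the presence of calcium, 10 of 12 were expressed, led by Anxa5 at 277, 271 and 265 FPKM and Anxa2 at 192, 185 and 187 FPKM. Of the S100 genes 7 of 17 were expressed, where S100a6 was at 406, 413 and 428 FPKM and S100a10 averaged 161 ± 2.28 FPKM after S100a11. Of the galectin genes 4 of 8 were expressed, and Lgals3 averaged 58.7 ± 3.02 FPKM after Lgals1. Of the unconventional myosin genes 11 of 25 were expressed, led by Myo1c at 73.8, 75.7 and 72.8 FPKM and Myo10, a filopodial motor, at 22.1, 22.7 and 21.7 FPKM. The deafness myosin genes Myo3a and Myo15 had no count. Of the clustered protocadherin genes 7 of 58 were expressed, and Pcdhgc3 at 46.5, 45.9 and 46.0 FPKM stood far above the next, Pcdhb5, at 4.87, 4.43 and 4.92 FPKM. That count of protocadherins was 12 at 0.5 FPKM, 4 at 2 FPKM, 14 by TPM and 18 by CPM. Of the ribosomal protein genes 80 of 85 were expressed, and of the nicotinic receptor genes 1 of 16, Chrnb1 (3.64 ± 0.129 FPKM).

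The shares of ion channel genes lay below the background, as a description with no test. Of 274 genes annotated with ion channel activity, again only among genes listed with an FPKM, 80 were expressed (29.2%). The highest, named after their values were seen, began with Vdac1, a porin of mitochondria (113 ± 3.15 FPKM). Next came Anxa6 (101 ± 1.76 FPKM), Sec61a1 (100 ± 1.23 FPKM), Marcksl1 (96.9 ± 1.40 FPKM) and the intracellular channel gene Clic1 (94.4 ± 2.97 FPKM). Anxa6 is an annexin gene, so the annotation is wider than channel genes. The mechanosensitive channel gene Piezo1, chosen in the same way, was at 34.8, 36.0 and 36.6 FPKM. Of 92 potassium channel genes named Kcn only 6 were expressed and 51 had no count, with Kcnip1, a channel-interacting subunit, the highest at 4.09, 4.27 and 4.46 FPKM. The count of Kcn genes was 10 at 0.5 FPKM, 2 at 2 FPKM, 14 by TPM and 16 by CPM. Of 14 sodium channel genes 1 was expressed, and of 10 calcium channel alpha 1 genes Cacna1a (1.60 ± 0.128 FPKM) and Cacna1g (1.30 ± 0.0846 FPKM). The ionotropic glutamate receptor genes Grik5 (9.97 ± 0.0853 FPKM) and Gria3 (6.43 ± 0.202 FPKM) were expressed, and 16 of the 18 were not. The TRP family was led by Pkd2 (11.5 ± 0.443 FPKM), Trpm7 (9.18 ± 0.156 FPKM) and the lysosomal channel gene Mcoln1 (6.76 ± 0.450 FPKM). None of 1136 olfactory receptor genes was expressed. Each of these families thus lay below the 44.9% of the background.

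Receptors for growth factors were well represented, with 20 of 29 expressed. Axl, a receptor tyrosine kinase for Gas6, was at 161, 162 and 159 FPKM, Tgfbr2 at 38.8, 40.5 and 39.4 FPKM and Met, the hepatocyte growth factor receptor, at 19.9, 20.0 and 18.0 FPKM. Erbb2 averaged 17.7 ± 0.139 FPKM, Igf1r 5.90 ± 0.122 FPKM, Fgfr1 4.41 ± 0.153 FPKM and Egfr 2.42 ± 0.0884 FPKM. Kit, Fgfr4 and Ntrk2 had no count. Among surface genes with CD symbols, chosen after their values were seen, the tetraspanin genes Cd63 and Cd9 averaged 87.7 and 57.7 FPKM.

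The study's nanoreactor carries serum albumin and its design names megalin-mediated uptake, so receptors for albumin and routes of cochlear drug entry were listed. Of these 9 of 24 were expressed. Lrp2, megalin, was low in all 3 libraries at 0.711, 0.644 and 0.696 FPKM, and its partner Cubn, cubilin, at 0.304, 0.312 and 0.236 FPKM. Amn, the cubilin anchor, had 4, 9 and 4 counts. Other genes of the list were higher, among them Sparc (above) and Cav1 at 78.0, 71.9 and 73.2 FPKM. Fcgrt, the neonatal Fc receptor that recycles albumin, was at 13.9, 13.4 and 14.5 FPKM. Lrp1, a receptor of the same family as megalin, was at 44.0, 44.3 and 45.3 FPKM. Of the routes for platinum drugs the copper transporter gene Slc31a1 was at 24.9, 23.3 and 22.7 FPKM, and the organic cation transporter gene Slc22a2 had no count. The aminoglycoside entry candidates Trpv1 and Trpa1 had no count, and Trpv4 was at 0.439, 0.266 and 0.444 FPKM.

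Of the growth list 22 of 25 genes were expressed. This list holds cell cycle genes, and also Trp53, its targets, cell cycle inhibitors, telomerase genes and class I histocompatibility genes. The cycling genes Pcna (104 ± 2.74 FPKM), Top2a (77.3 ± 2.77 FPKM), Mki67 (45.1 ± 1.08 FPKM) and Ccnb1 (78.2 ± 1.37 FPKM) were present together with Cdkn2a, the locus of p16 and p19Arf, at 162, 168 and 172 FPKM and Trp53 at 59.8, 61.0 and 59.1 FPKM. The Trp53 target Cdkn1a averaged 6.32 ± 0.424 FPKM and Mdm2 12.0 ± 0.127 FPKM. Tert, the telomerase catalytic subunit, was at 0.101, 0.102 and 0.0668 FPKM. The class I histocompatibility genes H2-D1 and H2-K1 (the locus whose promoter drives the transgene) averaged 54.0 and 18.2 FPKM, and their partner B2m 213 ± 9.63 FPKM. The T antigen transgene was not analysed here.

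Xist, the noncoding RNA of the inactive X chromosome, was at 4.36, 4.10 and 4.14 FPKM, and its antisense gene Tsix had no count. The Y-linked genes Ddx3y, Eif2s3y, Kdm5d, Uty, Usp9y, Zfy1 and Sry had no count in any library. Of 175 protein-coding genes annotated on the Y chromosome 3 had any count, the highest being 1607 in 1 library. Among imprinted and long noncoding genes Peg10 was the highest at 140.4, 139.9 and 138 FPKM, while H19 and Igf2 were at 0.134, 0.164 and 0.315 FPKM and 0.285, 0.449 and 0.212 FPKM, and Dlk1, Peg3 and Cdkn1c had no count. Malat1, a nuclear RNA, averaged 31.3 ± 0.0828 FPKM.

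The 3 libraries differed little. Spearman's rho over the expressed genes was between 0.994 and 0.995 for the 3 pairs, as a description of libraries of 1 line. Among 4970 genes at 10 FPKM or more the median coefficient of variation was 2.82%. Only 55 of them varied by more than 20%, and 34 of these were pseudogenes. Pseudogenes had a median variation of 5.88%, and protein-coding genes one of 2.70%.

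Most of the 10 most variable genes shared sequence or position with another gene. Gm45717 was at 0.182, 40.3 and 39.5 FPKM in libraries 1, 2 and 3, and Ifitm2, which it overlaps on the same strand, at 109.6, 76.0 and 75.3 FPKM. Their sum was 109.8, 116 and 115 FPKM, a variation of 3.00% where Gm45717 alone varied by 86.0%. The septin gene Septin2 has 2 overlapping gene IDs under 1 symbol, one at 2.06, 15.2 and 31.3 FPKM and the other at 34.7, 30.5 and 20.8 FPKM, so the first was highest where the other was lowest. Raver1 (30.4, 26.6 and 5.55 FPKM) and the overlapping Gm38431 (13.0, 15.0 and 29.4 FPKM) differed in the same way, with Raver1 lowest where Gm38431 was highest. Summed with the partner, the variation of Septin2 was 17.2% against 90.3% alone, and that of Raver1 11.2% against 64.2%, so these sums still varied more than that of Gm45717 and Ifitm2. Gm49450, which overlaps the tubulin genes Tuba1a and Tuba1b, was at 37.1, 35.0 and 0 FPKM. Sarnp overlaps Dnajc14, Gm12191 lies within Cnot6, and Gm10241 is a copy of Sumo2. The sum of Sarnp and Dnajc14 varied by 30.6% and that of Gm12191 and Cnot6 by 23.7%. The levels of these genes are uncertain, and the identity genes described above were not among them.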

How the data were processed

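Poly(A)-selected, strand-specific RNA libraries (150 bp paired-end, Illumina) were made from HEI-OC1 cells, per the labels' protocols. The deposited tables hold estimated counts per gene, as the authors computed them, and FPKM derived from them. No aligner or counter is named in the sources used here. The submitters' processing notes name hg38, but 30318 of 30411 deposited gene IDs are mouse IDs of GENCODE M21, with 99.5% at the same GRCm38 start, so positions are given on GRCm38. Genes in the count table but not in the FPKM table had no untreated count and were set to 0 FPKM.

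From these, each gene was classed in Python 3.11.15 with pandas 2.3.3 as expressed, low, at the floor or without a count. No differential test was made. Pseudogenes with a count were aligned to protein-coding transcripts with blastn 2.17.0 (e-value 1e-10 or less). Promoter windows came from RefSeq. The classification was run on simulated libraries. Only genes well above 1 FPKM or without a count were scored, so calls near 1 FPKM were not tested. Named genes were the 25 highest, the 4 highest members of each list and family, all members of the hair cell, otic, epithelial, neural and mesenchymal lists, and the 10 most variable; others, including absent markers of the remaining lists, were chosen after their values were seen. A few members of the lists are not reported here. The lists were chosen with earlier results of these data known. Replicates 1 to 3 were taken as labelled. Alternatives are given in the closing section.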

Additional observations from a re-analysis of the deposited data

How the results depend on the processing

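No paired analysis was possible because only 1 group, the untreated libraries, was used. Leaving out 1 library gave between 11093 and 11124 expressed genes against 11007, and moved no list or family count by over 1.5 times. The number of expressed genes was 12126 at 0.5 FPKM, 9693 at 2 FPKM, 13000 by TPM and 12162 by CPM. At a minimum of 2 FPKM the hair bundle count was 3, the supporting cell count 4 and the neural count 1. The epithelial count was 5 at 0.5 FPKM, 7 by TPM and 9 by CPM, and the Hox count 14 by TPM. Of 53 lists and families, the count moved by over 1.5 times in 6 at 0.5 FPKM, 11 at 2 FPKM, 10 by TPM and 9 by CPM, with the protocadherin and Kcn counts among them under each of these settings. The shares of the top 10, 100 and 1000 genes were 6.91%, 23.3% and 56.1% without mitochondrial genes, and those of the same numbers of genes ranked by count were 4.50%, 16.3% and 48.4% of deposited counts. By summed FPKM the mitochondrial share was 9.23% and that of ribosomal proteins 6.19%, against 2.66% and 3.43% of deposited counts. Ranked by CPM, 12 of the 25 most abundant genes stayed, and with pseudogenes left out, an alternative added after seeing the data, 17 did. The causes of these changes were not tested. Depth limits calls near 12 counts: 39005 genes not called expressed were at or under that floor in every library, and 34510 with a floor of 3 counts.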
